A study of Mus musculus with 12 samples.

Results

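RNA of 10 genes that are known from granulocytes, monocytes and plasmacytoid dendritic cells was read in libraries of sorted CD8 T cells, and it is described here for each library. The 10 genes were picked by symbol out of 35855 mouse genes that had a transcript in the deposited tables, and all 10 were found. Of these, 7 were picked by name as textbook myeloid genes, namely S100a8, S100a9, Camp, Ngp, Mpo, Elane and Lyz2. Earlier results of these data were known when they were picked, so their p-values are not free of that choice. The other 3 were picked with results of the same libraries in view. Ctse was chosen by its value in the comparison of TCF-1 cKO with WT cells before transplant, Chil3 was chosen by its value in the same comparison after transplant, and how Siglech was chosen is not recorded. Values of these 3 genes that come from the libraries that chose them are therefore given as a description with no test.

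The study asked how loss of the transcription factor TCF-1 (gene Tcf7; the labels write TCF-7 cKO) changes CD8 T cells that meet foreign tissue after transplant. CD8 T cells were sorted from the spleen of C57BL/6 donors that were either wild type (WT) or carried floxed Tcf7 and a Cre driven by the Cd4 promoter (TCF-1 cKO), so that the deletion is made in T cells and other cells of the same mice keep the gene. Cells kept before transplant make up the groups WT pre-transplant and TCF-1 cKO pre-transplant. Cells sorted back at day 7 from the spleens of irradiated female BALB/c recipients make up the groups WT post-transplant and TCF-1 cKO post-transplant. All recipients also received T cell-depleted WT marrow of the MHC haplotype of the donors, and donor mice were matched for age. Each group had 3 libraries, and the labels do not say whether these came from separate animals, so p-values measure the spread between these libraries only.

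Neutrophils are made in the marrow in steps, and each step fills its own granules: Mpo and Elane are transcribed early for the primary granules, Ngp and Camp later for the secondary ones, and S100a8 and S100a9 are the main cytosolic proteins of the mature cell. Lyz2 (lysozyme) and Chil3 (the chitinase-like protein Ym1) are made by monocytes and macrophages as well as by neutrophils. Siglech encodes a sialic acid-binding receptor of plasmacytoid dendritic cells, the main producers of type I interferon. Ctse encodes cathepsin E, an aspartic protease of the endosomes of antigen-presenting cells. A CD8 T cell is not known as a source of the granule proteins, and in a bulk library fewer cells of a type and less RNA per cell cannot be told apart.

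Library totals were 18898260 to 28765200 estimated counts in WT pre-transplant, 4499177 to 9535384 in TCF-1 cKO pre-transplant, 18135020 to 32551905 in WT post-transplant and 18346821 to 24488906 in TCF-1 cKO post-transplant cells. As a share of the library total (CPM, which scales each library to the same total), 3 counts stand for 0.0922 to 0.667 CPM. Tcf7 stood at 115 to 205 CPM in WT and 56.8 to 97.1 CPM in TCF-1 cKO cells before transplant, with no overlap, and at 6.89 to 17.2 CPM and 8.999 to 9.48 CPM after it, with overlap. The labelled cell type was checked against its markers. A list of 5 CD8 T cell genes summed to 2762 to 3985 CPM after transplant and to 518 to 1191 CPM before it. A list of 6 B cell genes ran the other way, with 324 to 507 CPM after and 12130 to 22720 CPM before. One library, replicate 2 of TCF-1 cKO post-transplant, reads CD4 in its source label and CD8 in its title, and this library held Cd8a at 431.8 CPM and Cd4 at 1.42 CPM.

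**Figure D1:**
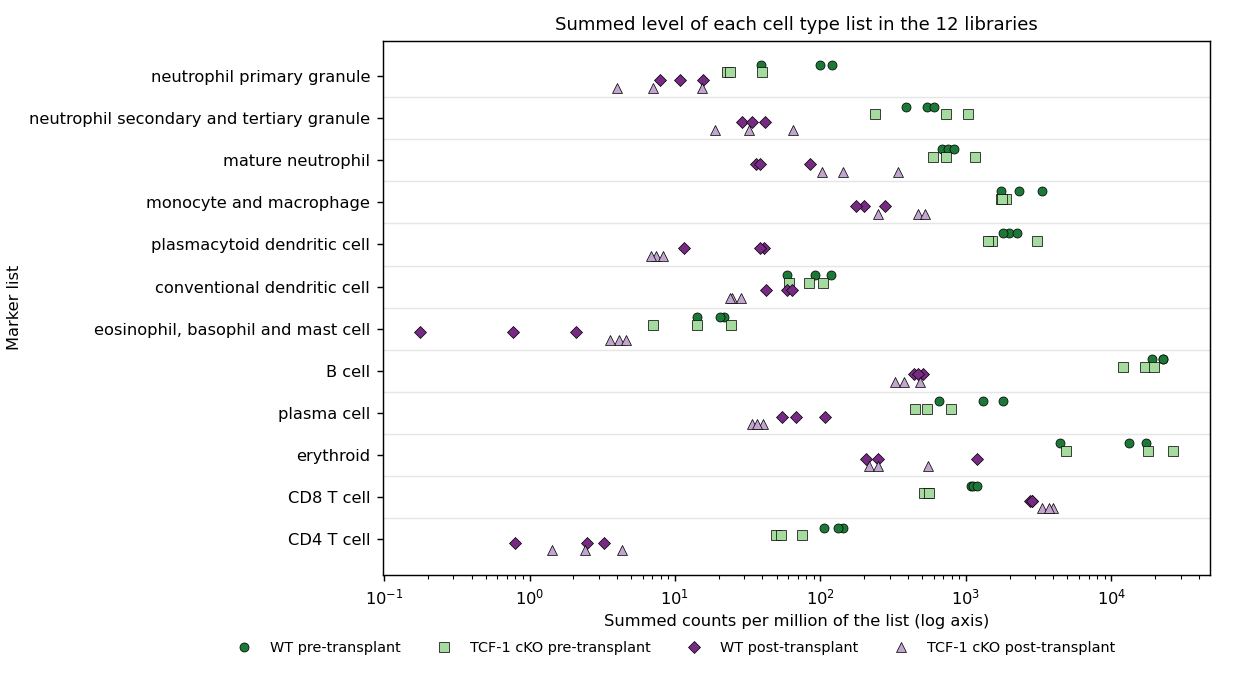
Summed CPM (log axis) of each of the 12 cell type lists, one point per library, coloured by group. The B cell and erythroid lists sit far to the right in the pre-transplant libraries, the CD8 T cell list sits highest after transplant, and the 4 granulocyte and monocyte lists are lower after transplant than before it in both genotypes.

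The levels of the 10 genes can be ordered per transcript length as TPM, the length-corrected abundance that kallisto gives. In WT pre-transplant cells Lyz2 led with a median of 1501 TPM, followed by S100a8 with 1007 TPM and S100a9 with 926 TPM, and the range of S100a8 overlapped those of the other two, while every Lyz2 value (1032 to 2133 TPM) was above every S100a9 value (893 to 1028 TPM). Ctse came next with 229 TPM, clear of S100a9 above it, then Ngp with 123 TPM, and the other 5 had medians of 18.8 to 44.2 TPM. In TCF-1 cKO pre-transplant cells the same 3 genes led with medians of 669 to 927 TPM, while Ctse had a median of 37.96 TPM and Siglech was last with 5.54 TPM. After transplant S100a8 led in both genotypes, with medians of 88.7 TPM in WT and 208 TPM in TCF-1 cKO cells. Lyz2 had fallen to a median of 8.49 TPM in WT cells, where its range overlapped those of Ngp and Camp, its neighbours in the order. At the low end, Siglech had a median of 0.141 TPM and Chil3 of 0.288 TPM in WT post-transplant cells, with overlapping ranges.

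**Figure D2:**
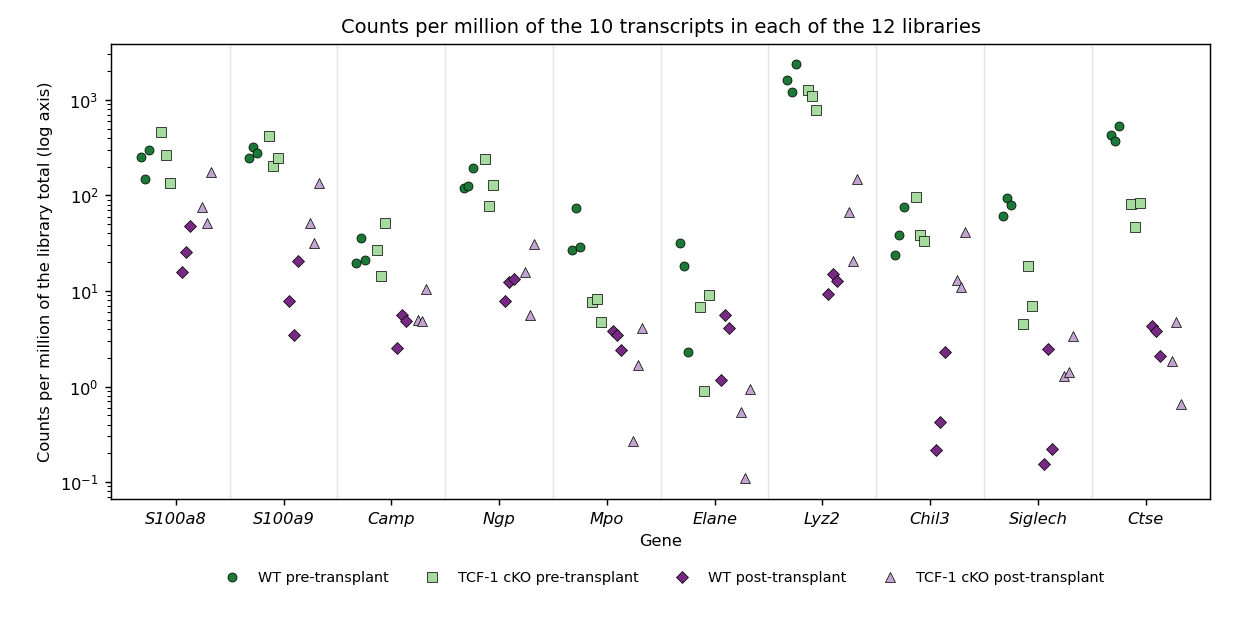
CPM (log axis) of the 10 genes in the 12 libraries, one point per library, coloured by group. Ctse, Siglech and Mpo are split by genotype before transplant, Chil3, Lyz2, S100a8, S100a9 and Elane are split by genotype after it, and Camp and Ngp overlap between genotypes at both stages.

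S100a8 (chromosome 3, 90668978 to 90670035, plus strand) and S100a9 (chromosome 3, 90692632 to 90695721, minus strand), the subunits of calprotectin, overlapped between genotypes before transplant. Positions here and below are those of the whole gene in GENCODE M21 on GRCm38. S100a9 stood at 245, 321 and 275 CPM in WT and at 421, 205 and 246 CPM in TCF-1 cKO pre-transplant libraries. S100a8 stood at 253, 150.4 and 300.1 CPM in WT and at 464, 262 and 136 CPM in TCF-1 cKO pre-transplant libraries. The ranges overlapped for both genes, and the log2 fold changes were -0.28 (SE 0.42, adjusted p = 0.71) for S100a9 and -0.11 (SE 0.50, adjusted p = 0.91) for S100a8, from the quasi-likelihood test of edgeR with p-values adjusted over all genes by the method of Benjamini and Hochberg.

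After transplant, every TCF-1 cKO library was above every WT library for both genes. S100a9 stood at 7.80, 3.45 and 20.8 CPM in WT and at 51.0, 32.2 and 135.9 CPM in TCF-1 cKO post-transplant libraries. Its log2 fold change was 2.49 (SE 0.72, adjusted p = 0.0627), and it passed the threshold, a false discovery rate of 0.1. S100a8 stood at 16.0, 25.4 and 48.2 CPM in WT and at 75.4, 52.0 and 178 CPM in TCF-1 cKO post-transplant libraries, a log2 fold change of 1.38 (SE 0.59, adjusted p = 0.168) that did not pass. TCF-1 cKO replicate 3 was the highest of the 6 libraries for both. The call of S100a9 held when WT post-transplant replicate 3 was left out (adjusted p = 0.0234) and was lost when any of the other 5 libraries was left out (adjusted p of 0.131 to 0.244).

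Camp (cathelicidin; chromosome 9, 109847379 to 109849617, minus strand) and Ngp (neutrophilic granule protein; chromosome 9, 110419747 to 110423012, plus strand), both of the secondary granules, did not separate the genotypes at either stage. Ngp stood at 121, 125 and 196 CPM in WT and at 241, 76.9 and 127 CPM in TCF-1 cKO cells before transplant. After transplant it stood at 7.83, 12.4 and 13.2 CPM in WT and at 15.6, 5.56 and 30.9 CPM in TCF-1 cKO cells. Its log2 fold changes were -0.35 (SE 0.49, adjusted p = 0.696) before and 0.15 (SE 0.64, adjusted p = 0.893) after transplant. Camp stood at 14.2 to 50.9 CPM before and 2.52 to 10.4 CPM after transplant, with log2 fold changes of 0.02 (SE 0.59, adjusted p = 0.987) and 0.14 (SE 0.59, adjusted p = 0.895). The ranges of the genotypes overlapped for both genes at both stages.

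Mpo (myeloperoxidase; chromosome 11, 87793581 to 87804413, plus strand) and Elane (neutrophil elastase; chromosome 10, 79886247 to 79888215, plus strand), the early granule genes, had log2 fold changes below 0 at both stages, and Elane after transplant was the single call among these 4 tests. Mpo stood at 26.9, 74.7 and 29.0 CPM in WT and at 7.60, 8.22 and 4.72 CPM in TCF-1 cKO cells before transplant. The groups did not overlap in CPM, but the log2 fold change of -2.98 (SE 0.59, adjusted p = 0.175) did not pass the threshold. It passed without TCF-1 cKO pre-transplant replicate 3 (adjusted p = 0.0285), and so did Lyz2 (adjusted p = 0.0886), in a fit where the genes called rose from 7 to 2739. In TPM the groups overlapped before transplant, with Mpo at 18.8, 35.4 and 12.3 in WT and 13.6, 6.18 and 1.92 in TCF-1 cKO cells. The transcript with the most counts of Mpo held 0 to 100% of them, depending on the library. Of its 31-base words 11.6% also occur in Gm11505. After transplant Mpo stood at 3.84, 3.49 and 2.43 CPM in WT and at 0.269, 1.69 and 4.08 CPM in TCF-1 cKO cells, with overlap and a log2 fold change of -1.21 (SE 0.88, adjusted p = 0.398).

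Elane rested on few counts in the TCF-1 cKO cells. Before transplant it stood at 32.2, 18.3 and 2.28 CPM in WT and at 6.84, 0.889 and 9.12 CPM in TCF-1 cKO libraries, with overlap and a log2 fold change of -1.88 (SE 1.00, adjusted p = 0.326). After transplant it stood at 1.17, 5.58 and 4.08 CPM in WT and at 0.539, 0.109 and 0.939 CPM in TCF-1 cKO libraries, the latter from 10, 2 and 23 estimated counts. The groups did not overlap and the log2 fold change was -3.28 (SE 0.95, adjusted p = 0.0639). This call was lost when any library other than WT post-transplant replicate 3 was left out (adjusted p of 0.136 to 0.19).

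Lyz2 (chromosome 10, 117277331 to 117282321, minus strand) had the highest median TPM of the 10 before transplant in both genotypes. It stood at 1619, 1204 and 2353 CPM in WT and at 1263, 1105 and 786 CPM in TCF-1 cKO pre-transplant libraries, which overlapped (log2 fold change -1.10, SE 0.45, adjusted p = 0.254). After transplant it stood at 9.28, 15.2 and 12.6 CPM in WT and at 67.7, 20.7 and 149 CPM in TCF-1 cKO libraries. The TCF-1 cKO libraries were all above the WT libraries, and the log2 fold change of 2.16 (SE 0.73, adjusted p = 0.0964) passed the threshold. The call was lost whichever of the 6 libraries was left out (adjusted p of 0.126 to 0.36). Lyz2 shares 32.8% of the 31-base words of its transcript with Lyz1, its near copy, which stood at 0 to 19.3 CPM, so some counts may be split between them.

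Chil3 (chromosome 3, 106147554 to 106167564, minus strand) had the highest log2 fold change of the 10 in the post-transplant comparison, which is the comparison that chose it. It stood at 0.215, 0.427 and 2.32 CPM in WT post-transplant libraries, from 7, 12 and 42 estimated counts. In the TCF-1 cKO post-transplant libraries it stood at 13.0, 11.01 and 41.9 CPM, from 241, 202 and 1026 estimated counts. The log2 fold change was 4.25 (SE 0.93). Before transplant, where it was not chosen, Chil3 stood at 24.0, 38.4 and 76.4 CPM in WT and at 95.3, 38.2 and 33.2 CPM in TCF-1 cKO libraries. These overlapped, and the log2 fold change was -0.13 (SE 0.57, adjusted p = 0.908). Of its 31-base words 41.5% also occur in transcripts of other genes. The largest part, 28.9% of its words, is shared with Chil4, its near copy, which stood at 0 to 4.22 CPM.

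Siglech (chromosome 7, 55768178 to 55778925, plus strand) was split by genotype before transplant and was at a few CPM or less after it. It stood at 61.2, 94.7 and 80.3 CPM in WT and at 4.56, 18.2 and 7.03 CPM in TCF-1 cKO pre-transplant libraries, the latter from 24, 82 and 67 estimated counts. The log2 fold change was -3.34 (SE 0.58), and the groups did not overlap. The transcript with the most counts of this gene (41.1% of them) had at most 0.68 estimated counts in the TCF-1 cKO pre-transplant libraries. It had 0 in every post-transplant library, so the gene sums rest in part on different transcripts between groups. After transplant it stood at 0.154, 2.49 and 0.221 CPM in WT and at 1.29, 1.42 and 3.39 CPM in TCF-1 cKO libraries. WT post-transplant replicate 2, with 70 of the 79 estimated counts of its group, lay among the TCF-1 cKO values, and the log2 fold change of 0.35 (SE 1.16) became 3.13 without it.

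Ctse (chromosome 1, 131638306 to 131675505, plus strand) was also split by genotype before transplant, in the comparison that chose it. It stood at 429.9, 370.2 and 535 CPM in WT and at 81.8, 46.5 and 83.1 CPM in TCF-1 cKO pre-transplant libraries, a log2 fold change of -2.99 (SE 0.47). After transplant, where it was not chosen, it stood at 4.27, 3.77 and 2.10 CPM in WT and at 1.83, 4.69 and 0.653 CPM in TCF-1 cKO libraries. These values came from 139, 106 and 38 estimated counts in WT and 34, 86 and 16 in TCF-1 cKO libraries. The groups overlapped, and the log2 fold change was -1.02 (SE 0.81, adjusted p = 0.438).

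**Figure D3:**
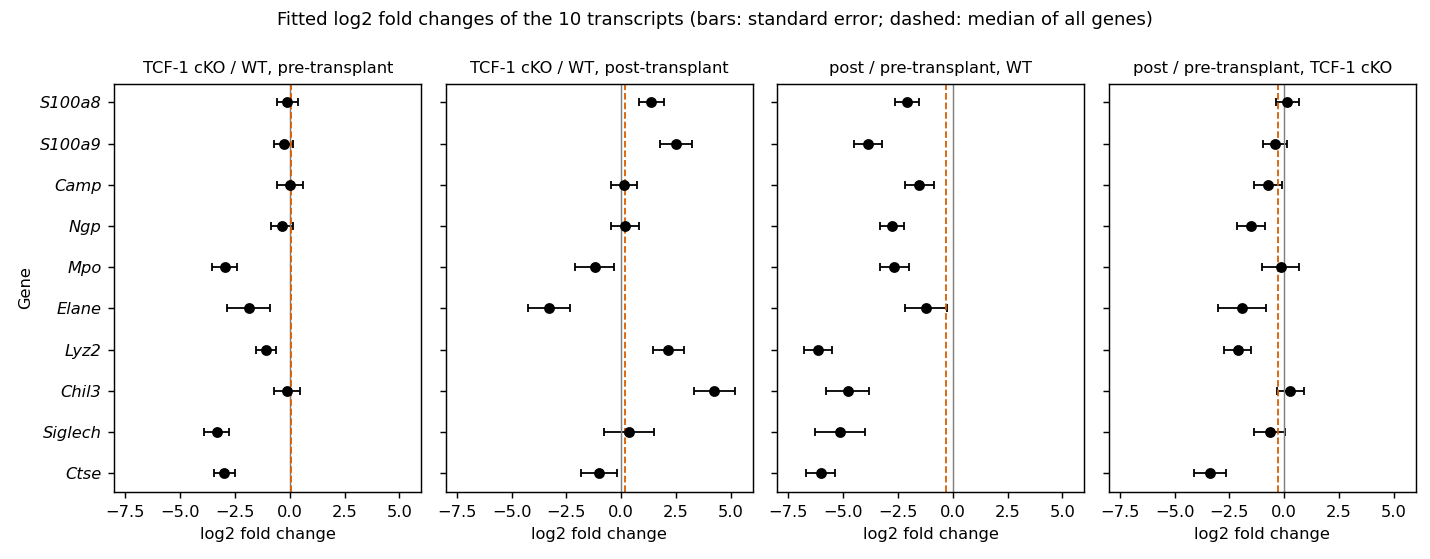
Log2 fold changes of the 10 genes with their standard errors in the 4 comparisons, each from edgeR on 6 libraries, with the median of all genes as a dashed line. Before transplant 9 of the 10 lie left of 0, all but Camp (with library totals Chil3, S100a8, S100a9 and Ngp turn above 0), after transplant 7 of the 10 lie right of it, all but Ctse, Mpo and Elane (with the GC content and length offset S100a8, Ngp and Siglech turn below 0), and in WT cells all 10 are lower after transplant than before.

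Counted together, 0 of the 8 genes that could be tested before transplant passed the threshold, where 0.0373% of 18757 genes did. At an unadjusted p under 0.05, 3322 genes passed, and DESeq2 called 1455 genes and 1 of the 8. In that comparison 3 of the 10 genes (Ctse, Siglech and Mpo) had all TCF-1 cKO libraries below all WT libraries in CPM. So had 6.33% of all genes tested. Ctse was chosen for this difference, so nothing is read from its place in that count. After transplant 3 of the 8 genes that could be tested passed: S100a9 and Lyz2 were higher in TCF-1 cKO cells, where 2.51% of 16026 genes were called higher, and Elane was lower, where 15.4% were called lower. All TCF-1 cKO libraries were above all WT libraries for 4 of the 10 (Chil3, Lyz2, S100a8 and S100a9), against 27.0% of all genes tested, and Chil3 was chosen for this difference, so nothing is read from its place in the count. Elane alone had all TCF-1 cKO libraries below all WT libraries, against 15.7% of all genes tested. All of these genes were chosen with earlier results of these data known, which limits what the counts can show.

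The change of the genotype difference from before to after transplant was tested for the 7 genes picked by name, and 0 of the 7 passed, against 0.00465% of 21526 genes. Lyz2 came with a change of 3.77 on the log2 scale (SE 0.87, adjusted p = 0.233) and S100a9 with 3.18 (SE 0.87, adjusted p = 0.233). S100a8 had 1.96 (SE 0.83, adjusted p = 0.288) and Mpo 2.27 (SE 1.04, adjusted p = 0.31). At an unadjusted p under 0.05, 3377 genes passed. DESeq2 called 1713 genes, among them 2 of the 7, Lyz2 (adjusted p = 0.0114) and S100a9 (adjusted p = 0.0174). Over all alternatives, fits without a library included, the adjusted p of Lyz2 ran from 0.0114 to 0.423.

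In WT cells, all 10 genes were lower after transplant than before. Of the 7 that were tested, 5 fell, with log2 fold changes of -6.14 for Lyz2 (SE 0.62, adjusted p = 0.000572), -3.87 for S100a9 (SE 0.64, adjusted p = 0.00424), -2.76 for Ngp (SE 0.56, adjusted p = 0.0102), -2.67 for Mpo (SE 0.67, adjusted p = 0.0258) and -2.09 for S100a8 (SE 0.57, adjusted p = 0.0355). Of all 16790 genes tested, 10.3% were called lower and 9.70% higher. The call of S100a8 was lost without WT pre-transplant replicate 1 or 3 or WT post-transplant replicate 1 (adjusted p of 0.122 to 0.238), and that of Mpo without WT pre-transplant replicate 2 or WT post-transplant replicate 1 (adjusted p of 0.106 and 0.124). Camp (log2 fold change -1.52, SE 0.66, adjusted p = 0.158) and Elane (-1.22, SE 0.97, adjusted p = 0.455) did not pass. The genes that were only described had log2 fold changes of -6.02 (SE 0.65) for Ctse, -5.16 (SE 1.14) for Siglech and -4.79 (SE 0.97) for Chil3.

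In TCF-1 cKO cells only Lyz2 of the 7 was called, with a fall of 2.11 on the log2 scale (SE 0.62, adjusted p = 0.0313), lost without TCF-1 cKO post-transplant replicate 1 (adjusted p = 0.115). Of all 18535 genes, 16.8% were called lower and 19.7% higher. This comparison turned on the scaling. In CPM, all TCF-1 cKO libraries after transplant were below all those before it for 7 of the 10 genes, with S100a8, Chil3 and Elane as the exceptions, and for 54.4% of all genes tested. The composition factors of edgeR (TMM) raised the median log2 fold change of all genes from -1.89 with library totals to -0.29. With library totals 12268 of the 18535 genes were called, most of them lower, among them 6 of the 7, and the log2 fold changes of S100a8 and Chil3 turned from 0.15 and 0.28 to -1.51 and -1.35. In the same step the share of calls that were higher went from 54.0% to 13.5%, and in WT cells, where the median went from -0.30 to -1.25, from 48.4% to 14.8% (60.8% with the GC content and length offset). Before transplant 42.9% of 7 calls were higher, and 75.0% of 12 with library totals. The log2 fold changes in TCF-1 cKO cells were -3.39 (SE 0.72) for Ctse, -0.65 (SE 0.70) for Siglech and 0.28 (SE 0.60) for Chil3.

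Ratios of counts within a library do not depend on the scaling, and they set Ctse, Siglech and Chil3 beside S100a9 and Lyz2. Per 1000 counts of S100a9, Chil3 had 97.8, 119 and 278 counts in WT and 226, 187 and 135 counts in TCF-1 cKO cells before transplant. After transplant it had 27.6, 124 and 111 counts in WT and 254, 342 and 308 counts in TCF-1 cKO cells, which did not overlap. Ctse had 1754, 1152 and 1948 counts per 1000 of S100a9 in WT and 194, 227 and 337 in TCF-1 cKO cells before transplant, while after it the ranges were 100.5 to 1093 and 4.81 to 145.8 and overlapped. Siglech had 249, 295 and 292 counts in WT and 10.8, 88.9 and 28.5 in TCF-1 cKO cells before transplant. After transplant it had 19.7, 722 and 10.6 counts in WT and 25.3, 44.1 and 24.9 in TCF-1 cKO cells, with overlap. The genotype splits of Ctse before and of Chil3 after transplant are the differences these genes were chosen by, and their ratios at those stages restate that choice. Per 1000 counts of Lyz2, Chil3 had 14.8 to 32.5 counts in WT and 34.6 to 75.5 in TCF-1 cKO cells before transplant, and 23.2 to 183 and 192 to 533 after it, with no overlap at either stage. How often other pairs of genes split in this way was not counted.

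**Figure D4:**
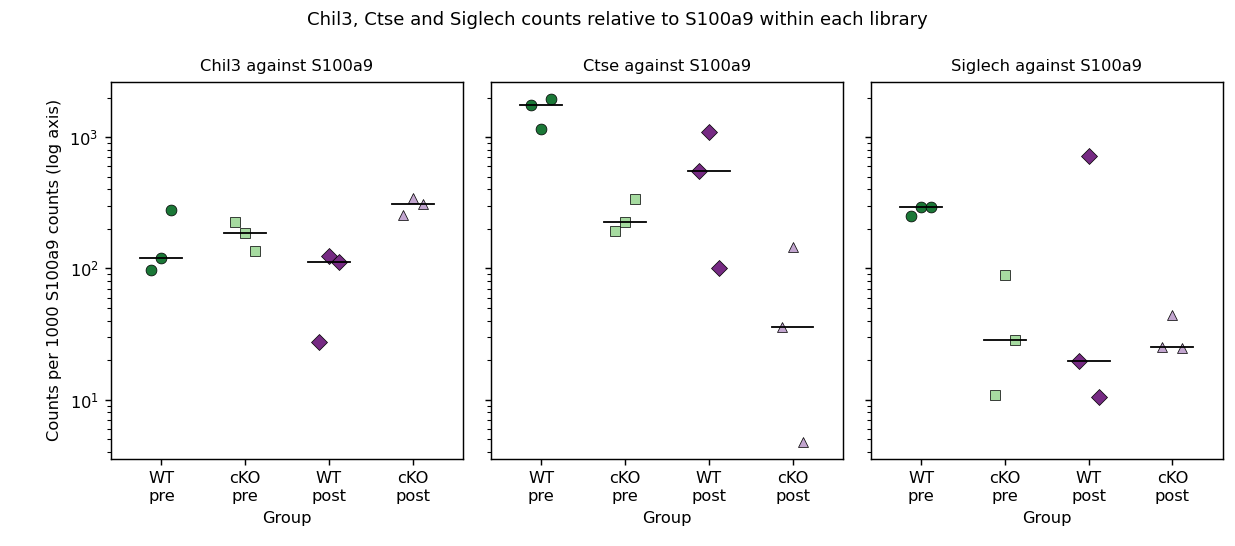
Counts of Chil3, Ctse and Siglech per 1000 counts of S100a9 in the same library (shared log axis), one point per library with a bar at the group median. The Ctse and Siglech ratios are lower in TCF-1 cKO than in WT cells before transplant, and the Chil3 ratio is higher in TCF-1 cKO than in WT cells after transplant.

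Among the 7 genes picked by name the ratios also moved. Per 1000 counts of Ngp, Mpo had 148 to 599 counts in WT and 31.6 to 107 in TCF-1 cKO cells before transplant, and 183 to 490.2 and 17.2 to 304, with overlap, after it. Elane had 11.7 to 266 and 11.6 to 71.6 counts before transplant, with overlap, and 149 to 451 in WT and 19.6 to 34.5 in TCF-1 cKO cells after it. Camp had 107 to 286 and 111 to 399 counts before and 322 to 448 and 317 to 863 after transplant, with overlap at both stages. Ngp had 635 to 3588 counts per 1000 of S100a9 in WT and 173 to 306 in TCF-1 cKO cells after transplant, with no overlap, and 388 to 712 and 375 to 572 before transplant, with overlap. S100a9 had 916 to 2137 and 781 to 1811 counts per 1000 of S100a8 before transplant, with overlap, and 136 to 488 in WT and 618 to 764 in TCF-1 cKO cells after it. The genotypes thus split for Mpo per Ngp before transplant and for Elane per Ngp, Ngp per S100a9 and S100a9 per S100a8 after it, and overlapped in the other 6 of these 10 comparisons. No share over all pairs of genes was taken, so nothing is read from this count. Single genes split after transplant in 27.0% (higher) and 15.7% (lower) of cases. Elane, Ngp and S100a9 also differ in GC content (57.4, 50.2 and 45.6%), which ratios do not remove, and its part was not tested.

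Likeness over the 12 libraries is given as Pearson's r of log2(normalized CPM + 1), as a description, since the libraries fall into 4 groups and share depth and stage. With the mean of the 7 genes picked by name, r was 0.797 for Ctse, 0.839 for Siglech and 0.70 for Chil3. For deviations from the group means, a measure chosen after seeing the data, r was -0.361, 0.299 and 0.686. Chil3 was closest to Art3 (0.949), S100a9 (0.938), Ctsl (0.931), Trim44 (0.921) and Bod1l (0.916), so that S100a9 ranked second of 21525 genes, and S100a8 had r of 0.899. At the other end, Chil3 had r of -0.202 with Elane, 0.131 with Mpo and 0.362 with Ctse. Ctse was closest to Supt6 (0.968), Pfkfb3 (0.967), Nsg2 (0.967) and Lyl1 (0.966), and its r with the other 9 genes was 0.337 to 0.836. Siglech was closest to Pakap, Vipr1, Hap1, Igfbp4 and Hes5 (0.928 to 0.931), and its r was 0.836 with Ctse, 0.809 with Mpo and 0.808 with Lyz2.

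The promoters of Chil3 and S100a9, the closest pair among the 10 that includes Chil3, are shown beside that of Siglech. Promoter sequences of RefSeq (GRCm38.p6, 250 bases before the start) were found for 9 of the 10 genes. The windows of these 3 hold at most 6 bases of a GENCODE exon, and the other 6 reach further into exons and are not shown. Each window was searched on both strands for TATAAA (the TATA box), GAGGAA (the core bound by PU.1, the myeloid ETS factor) and TTGCNNAA (the C/EBP type), with matches in capitals. None of these 3 windows held TATAAA or GAGGAA, which occur in 12.4% and 23.2% of all 32851 RefSeq promoters. TTGCNNAA, found in 9.56% of promoters, had 1 match each in S100a9 and Siglech and 0 in Chil3.
Chil3, chr3:106167565-106167814, minus strand: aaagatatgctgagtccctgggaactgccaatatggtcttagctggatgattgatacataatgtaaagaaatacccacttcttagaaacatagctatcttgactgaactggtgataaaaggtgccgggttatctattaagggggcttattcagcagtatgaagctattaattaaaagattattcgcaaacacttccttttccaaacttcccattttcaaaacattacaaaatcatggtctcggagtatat
S100a9, chr3:90695722-90695971, minus strand: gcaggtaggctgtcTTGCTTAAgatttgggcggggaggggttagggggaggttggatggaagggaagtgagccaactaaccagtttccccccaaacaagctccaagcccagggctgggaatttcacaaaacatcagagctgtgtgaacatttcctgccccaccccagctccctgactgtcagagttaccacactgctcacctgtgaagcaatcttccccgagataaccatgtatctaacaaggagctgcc
Siglech, chr7:55767934-55768183, plus strand: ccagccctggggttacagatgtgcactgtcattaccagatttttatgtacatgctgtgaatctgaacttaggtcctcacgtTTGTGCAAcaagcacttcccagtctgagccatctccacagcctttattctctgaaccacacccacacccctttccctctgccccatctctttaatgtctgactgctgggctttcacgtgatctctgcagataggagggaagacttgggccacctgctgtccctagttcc

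GC content moved with the post-transplant differences. Over 16026 genes the rank correlation of the log2 fold change with the GC content of the transcript was -0.569, and the median log2 fold change was 0.65 in the lowest of 10 equal bins of GC content and -2.59 in the highest bin. Among the 10 genes, the log2 fold changes were 1.38 for S100a8 (44.8% GC), 4.25 for Chil3 (44.97%), 2.49 for S100a9 (45.6%) and 2.16 for Lyz2 (48.3%). They were 0.14 for Camp (54.2%), -1.21 for Mpo (54.3%) and -3.28 for Elane (57.4%). Over the 10 genes the rank correlation with GC content was -0.891, with Chil3 included although this comparison chose it. With an offset that removes each library's trend on GC content and length, 0 of the 8 tested genes passed, and the calls over all 16026 genes went from 2868 to 583. Under the offset, S100a9 had a log2 fold change of 1.23 (adjusted p = 0.198), Lyz2 1.43 (adjusted p = 0.302), Elane -1.70 (adjusted p = 0.33) and S100a8 -0.22 (adjusted p = 0.849). Chil3, chosen by this comparison, went from 4.25 to 3.51 under that offset. Before transplant the rank correlation was -0.294, and under the offset Ctse had -3.29 and Siglech -3.67.

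**Figure D5:**
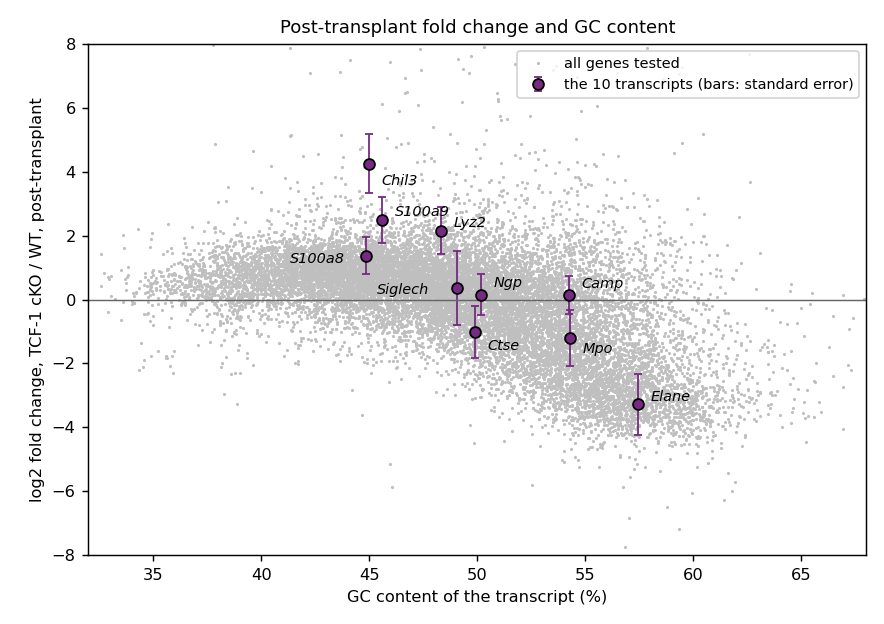
Log2 fold change of TCF-1 cKO against WT after transplant and GC content of the transcript (percent), with all genes tested in grey and the 10 genes in purple with their standard errors. The cloud falls from left to right, and the 10 genes run from Chil3 and S100a8 near 45% GC to Elane at 57.4% GC; 29 genes lie outside the axes.

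The other genes of the cell type lists were not picked for how they moved in this report, but the lists were set with earlier results of these data known. Before transplant 0 of the 62 list genes that are not among the 10 passed the threshold, where 0.0373% of 18757 genes did. Of the 62, 61 passed the filter, and their median log2 fold change was -0.57 beside 0.05 for all genes. DESeq2 called 10 of them. Of the 61, 47 had log2 fold changes below 0, among them all 6 B cell, all 4 plasma cell and all 5 CD8 T cell genes. Of the plasmacytoid dendritic list, all 5 other genes had values below 0, and Klk1, Cox6a2 and Pacsin1 are named after their values were seen: Klk1 -3.43 (SE 0.94, adjusted p = 0.2), Cox6a2 -2.48 (SE 0.99, adjusted p = 0.245), Pacsin1 -1.26 (SE 0.76, adjusted p = 0.373), Spib -0.37 (SE 0.41, adjusted p = 0.623) and Ly6d -0.15 (SE 0.49, adjusted p = 0.87). Spib and Ly6d, which B cells also express, made up most of the summed level of that list, 1804 to 2242 CPM in WT and 1430 to 3073 CPM in TCF-1 cKO cells. The CD8 T cell list moved beside Ctse and Siglech, at 1083 to 1191 CPM in WT and 518 to 554 CPM in TCF-1 cKO cells. Cd4 did so too, at 106 to 143 CPM in WT and 49.6 to 75.2 CPM in TCF-1 cKO cells, as did the plasma cell list in part, at 650.5 to 1794 and 451 to 794 CPM. The B cell list was at 19010 to 22720 and 12130 to 19850 CPM and overlapped. The part of these cells in the Ctse and Siglech differences was not tested.

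After transplant 51 of the 62 passed the filter, and 7 of these were called, 2 higher and 5 lower in TCF-1 cKO cells. Over all 16026 genes 2.51% were called higher and 15.4% lower. The median log2 fold change of the 51 was -0.62 beside 0.15 for all genes. Of the 7, Mmp8, Spic, Pacsin1 and Cd3e were chosen for naming after their values were seen. The higher ones were Mmp8, a collagenase of neutrophil granules (log2 fold change 3.85, SE 0.88, adjusted p = 0.0448, from 2, 1 and 5 counts in WT and 35, 48 and 47 in TCF-1 cKO cells), and Spic, a transcription factor of red pulp macrophages (1.81, SE 0.59, adjusted p = 0.0905). The lower ones were Pacsin1 (-4.12), Hba-a2 (-3.18), Cd3e (-2.81), Itgax (-2.34) and Xbp1 (-1.69). GC content was 43.4% for Mmp8 and 44.8% for Spic, and 50.3 to 58.8% for the 5 lower ones. With the GC content and length offset 2 list genes were called. The part of GC content in these calls was not tested. Among the genes nearest in role to the 10, Ltf had -1.47 (SE 0.65, adjusted p = 0.183), Lcn2 -1.02 (SE 0.91, adjusted p = 0.488), Csf3r 0.86 (SE 0.62, adjusted p = 0.398), Prtn3 -3.58 (SE 1.49, adjusted p = 0.158), C1qb -1.39 (SE 0.75, adjusted p = 0.261) and Ccr2 0.97 (SE 0.75, adjusted p = 0.427).

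The calls by list below stand beside 2.51% of 16026 genes called higher and 15.4% called lower. By list, the mature neutrophil genes summed to 36.0 to 84.8 CPM in WT and 103 to 342 CPM in TCF-1 cKO post-transplant cells, which did not overlap, with 1 of 6 called (S100a9). S100a8 and S100a9 made up most of this sum in every library, so it largely repeats their values given above. The secondary and tertiary granule genes summed to 29.1 to 41.6 and 18.8 to 65.2 CPM and overlapped, with 1 of 7 called of those that passed the filter (Mmp8). The primary granule genes summed to 7.94 to 15.6 and 3.99 to 15.4 CPM, with 1 of 5 called (Elane, lower). The monocyte and macrophage genes summed to 175 to 279 and 249 to 522 CPM, and Ccr2, which T cells also express, was 10.4 to 179.5 CPM of this in WT and 119 to 261 CPM in TCF-1 cKO cells. The eosinophil, basophil and mast cell genes, at 0.178 to 2.10 and 3.59 to 4.58 CPM, did not overlap either, and Mcpt8 was the single gene of this list past the filter (0.72, SE 0.92, adjusted p = 0.637). The CD8 T cell list was also higher without overlap, at 2762 to 2872 and 3362 to 3985 CPM. Other lists were lower in TCF-1 cKO cells without overlap. The plasmacytoid dendritic list was at 11.6 to 41.1 and 6.86 to 8.23 CPM. The conventional dendritic list was at 42.1 to 63.9 and 23.9 to 28.5 CPM, and the plasma cell list at 54.6 to 108 and 34.1 to 40.2 CPM. Single genes split higher in 27.0% and lower in 15.7% of cases.

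Between stages most of the other list genes were lower after transplant in both genotypes. Their median log2 fold change in WT cells was -3.11, beside -3.32 for the 10. In TCF-1 cKO cells it was -2.75, beside -0.70 for the 10, of which 2 had values above 0. In WT cells 35 of 59 were called lower and 6 higher, where 10.3% and 9.70% of 16790 genes were. The 6 higher ones were the 5 CD8 T cell genes and Ccr2. In TCF-1 cKO cells 35 of 59 were called lower and 7 higher, where 16.8% and 19.7% of 18535 genes were. The secondary and tertiary granule genes other than Camp and Ngp were called lower in 6 of 6 cases in both genotypes, and Ltf had log2 fold changes of -2.26 in WT (SE 0.54, adjusted p = 0.0207) and -3.76 in TCF-1 cKO cells (SE 0.90, adjusted p = 0.0129). Csf3r, the receptor for the granulocyte growth factor, fell too, with -6.47 (SE 0.64, adjusted p = 0.000565) and -3.92 (SE 0.45, adjusted p = 0.000284). The B cell list was called lower in 6 of 6 genes in both genotypes. The summed B cell, erythroid and Cd4 levels moved down beside the summed level of the 10 genes. Their part in the stage differences was not tested.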

How the data were processed

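CD8 T cell RNA was amplified from low input with a SMART-Seq HT kit, made into Nextera XT libraries and sequenced as paired ends. The authors quantified each of the 12 libraries with kallisto 0.46.2 and deposited, per Ensembl transcript, expected counts (estimated counts) and TPM. The submitters' processing notes also name mm9 and limma, and the transcript release is not given in the sources used here. Of 117497 transcripts per library, 116374 matched a gene of GENCODE M21 (GRCm38), holding 99.53 to 99.74% of counts, and were summed to 35855 genes. CPM are these sums scaled to a common library total.

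Gene sums were rounded and tested with edgeR 4.0.16 (quasi-likelihood, TMM factors, filterByExpr, Benjamini-Hochberg, false discovery rate 0.1, as the study used) in R 4.3.3, each comparison on its own 6 libraries and the change between stages on all 12, whereas the study used limma-voom. Groups came from the labels. DESeq2 1.42.0, limma 3.58.1 (voom, and log2(TPM + 1)), other scalings, no filter, a replicate block, a GC content and length offset, and leaving out each library were alternatives. The script was tested on simulated data. Replicates differed beyond counting error (chi-square divided by its degrees of freedom 25.4 to 760), and floors of 3 counts cover counting error only. Named were the 10 genes, Lyz1, Chil4, Tcf7, up to 3 list genes with the highest mean CPM per list and the 5 genes nearest to each of Ctse, Siglech and Chil3, of which 1 is not reported here. Members and lists were chosen with earlier results of these data known.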

Additional observations from a re-analysis of the deposited data

How the results depend on the processing

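Depth was lowest in TCF-1 cKO pre-transplant cells, and Siglech, Ctse, Elane, Mpo and, in WT cells, Chil3 rested on few counts after transplant. The median log2 fold change of all genes moved from 0.05 with TMM to 0.39 with library totals and -0.38 with the GC content and length offset before transplant, and from 0.15 to 0.54 and -0.16 after it. The cause of the changes below was not tested.

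Members called before transplant (0) became 1 with DESeq2 and 1 with no filter, and 0 to 2 with 1 library left out. After transplant the 3 became 1 with limma-voom, 1 with the replicate block, 0 with log2(TPM + 1) and no filter, 0 with the offset, 0 with the offset and the block, and 0 to 2 with 1 library left out. In WT cells between stages the 5 became 3 to 5 with 1 library left out. In TCF-1 cKO cells the 1 became 2 with limma-voom, DESeq2, no filter or the block, 6 with library totals, 7 with log2(TPM + 1) or log2(TPM + 0.1), 6 with log2(TPM + 1) and no filter, 3 with the offset with or without the block, and 0 to 2 with 1 library left out. For the change between stages the 0 became 2 with DESeq2 and with no filter and 0 to 2 with 1 library left out.

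List genes called before transplant (0) became 10 with DESeq2, 5 with no filter, 4 with log2(TPM + 1), 2 with log2(TPM + 0.1), 2 with the offset and block, and 0 to 20 with 1 library left out. After transplant the 7 became 15 with DESeq2, 0 with log2(TPM + 1) and no filter, 2 with the offset, 0 with the offset and block, 11 with 1 fit over all 12 libraries, and 0 to 18 with 1 library left out. They were 26 to 42 in WT and 35 to 38 in TCF-1 cKO cells between stages with 1 library left out. For the change between stages the 0 became 10 with DESeq2, 4 with no filter, and 0 to 12 with 1 library left out.

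All genes called, 7 before transplant, became 1455 with DESeq2, 619 with no filter, 341 with log2(TPM + 1), 240 with log2(TPM + 0.1), 0 with log2(TPM + 1) and no filter, 12 with library totals, 10 with the offset, 13 with the offset and block, 3 with DESeq2 size factors, 2 with limma-voom, 0 with the block, and 0 to 2739 with 1 library left out. The 2868 after transplant became 4525 with DESeq2, 583 with the offset, 2 with the offset and block, 3 with log2(TPM + 1) and no filter, and 0 to 5299. The 3362 in WT cells became 6732 with log2(TPM + 1), 6666 with log2(TPM + 0.1), and 1579 to 4156, and the 6774 in TCF-1 cKO cells became 12268 with library totals, 13174, 13216 and 11697 with the 3 TPM fits, and 5242 to 7114. The 1 for the change between stages became 1713 with DESeq2, 580 with no filter, 114, 52 and 32 with the TPM fits, and 0 to 2093.

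Log2 fold changes near 0 turned sign. Before transplant, Camp had -0.079 with limma-voom, -0.011 with DESeq2 and with its size factors, -0.191 with no filter, -0.178 with the replicate block, -0.495 with the offset, -0.646 with the offset and block, and -0.115 with 1 fit over all 12 libraries. Library totals gave 0.272 for Chil3, 0.301 for S100a8, 0.059 for S100a9 and 0.02 for Ngp. TPM gave Chil3 0.137 (0.141 with the pseudocount of 0.1) and S100a8 0.049. Leaving out 1 library gave -0.845 to 0.365 for Camp, -0.741 to 0.46 for Chil3 and -0.638 to 0.073 for S100a8. After transplant, Ngp had -0.065 with limma-voom, -0.036 with the block, -0.137 with the offset and -0.264 with both, Siglech had -0.335 with the offset, and S100a8 had -0.224 with the offset and -0.127 with both. Leaving out 1 library gave -0.329 to 3.13 for Siglech, -0.311 to 0.61 for Camp and -0.544 to 0.538 for Ngp.

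In TCF-1 cKO cells between stages, Chil3 had -1.35 with library totals, -1.66 with log2(TPM + 1), filtered or not, -1.76 with log2(TPM + 0.1), -0.405 with the offset and -0.514 with offset and block. S100a8 had -1.51, -1.84, -1.85, -0.812 and -0.88 in the same order. Mpo had 0.048 with the offset. Leaving out 1 library gave -1.16 to 0.254 for Camp, -1.19 to 0.376 for Mpo, -0.531 to 0.896 for Chil3 and -0.455 to 0.7 for S100a8. For the change between stages Elane had 0.159 with the offset, and Camp -0.135 to 1.29 with 1 library left out.

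The likeness to the mean of the 7 genes picked by name became 0.912 for Ctse and 0.865 for Chil3 on log2(TPM + 1), and -0.361 for Ctse and 0.299 for Siglech on deviations from group means. It was 0.75 to 0.932 for Ctse and 0.585 to 0.772 for Chil3 with 1 library left out. The main fits did not pair libraries by replicate number. Deviations of same-numbered libraries were weakly correlated (-0.08 to 0.06 before and 0.06 to 0.16 after transplant, 0.04 to 0.28 in WT and -0.18 to -0.02 in TCF-1 cKO cells). With 3 libraries per group these values cannot show whether the samples were paired.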
